A study of Mus musculus with 8 samples.

Results

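The vacuolar proton pump (V-ATPase) was followed through 8 of its subunit genes in maps of N4-acetylcytidine (ac4C), a cytosine of RNA that carries an acetyl group. The genes were Atp6v1a, Atp6v1b2 and Atp6v1f of the V1 sector and Atp6v0c, Atp6v0d1, Atp6v0d2, Atp6v0a1 and Tcirg1 of the V0 sector. A peak was counted for a gene where it shared 1 or more bases, on the same strand, with the gene's span in the mouse build mm39. In all, 112 of the 105252 deposited peaks met this rule, and they merged into 68 of 75389 regions. The genes were chosen by where peaks lie, with results of these same lists already known. Among those was a strong region present in both wild-type lists and in neither knockout list, which lies in the Atp6v1f span. Peak positions and peak strength are therefore described here and no test is made on them.

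The cells were bone marrow-derived monocytes of mice, a wild-type (WT) group and a group with a conditional knockout (CKO) of Nat10. Both groups had been exposed for 3 days to RANKL, the cytokine that turns monocytes into osteoclasts, the cells that resorb bone. Nat10 encodes the enzyme that writes ac4C, and the study asked how its loss alters ac4C while osteoclasts form. Total RNA in fragments of 100 to 200 nt was precipitated with an anti-ac4C antibody and sequenced beside an input portion. The 4 precipitated and 4 input samples gave 4 peak lists, WT 1, WT 2, CKO 1 and CKO 2. The sources used here do not state the promoter that drives the recombinase, the age and sex of the mice, or whether replicates came from separate animals.

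The V-ATPase is a rotary motor. Its V1 sector, on the cytosolic side, hydrolyses ATP through the A and B subunits, and the F subunit belongs to the central shaft that carries the rotation. The V0 sector lies in the membrane, where a ring of c subunits turns against the a subunit and moves protons across, and the d subunit joins the shaft to the ring. In osteoclasts the pump sits in the ruffled border and acidifies the space over the bone surface. The a3 isoform encoded by Tcirg1 and the d2 isoform encoded by Atp6v0d2 are the forms known for this cell, while a1 and d1 are found widely.

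The lists hold positions, strands and a score per peak. They name no genes and count no reads, so the depth behind a peak is unknown, and exon or UTR position was not analysed here. Where a list has no peak, ac4C may still be present, either too weak to be called or in a call that the list leaves out. Peak numbers in precipitated RNA also depend on how much of each mRNA the cells held. In these bulk samples fewer cells of a type and less RNA per cell cannot be told apart. Scores were used only as percentiles within a list, where 100 is the strongest peak. The lists had 28065 and 24851 peaks in WT and 28087 and 24249 in CKO. Nat10 and osteoclast or macrophage marker genes were not analysed here, so neither the knockout nor the cell type was checked. With 2 lists against 2, no exact two-sided test could go below p = 0.333.

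The spans were between 396 and 1699 bases longer than the RefSeq genes of the same name, and for the 6 genes with RefSeq start sequences the strands were the same. The nearest same-strand peak outside any span stood 1153 bases beyond the Tcirg1 span, and the peak closest to an edge from within stood 321 bases inside that of Atp6v0d1. Widening every span by 1 kb added no peak. In RefSeq (GRCm38.p6) the 5′ end of Atp6v1b2 overlaps Slc18a1 by 503 bases, and Mir6928 lies within Atp6v0a1. No protein-coding gene of RefSeq overlapped the other 7.

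The WT-only region of Atp6v1f is the 5′-most of its 2 regions. The 2 regions of Atp6v1f span 2485 bases together, and the RefSeq gene is 2727 bases long. If both regions lie inside the gene, the first begins no more than 242 bases from its 5′ end. The corresponding allowance for the first region of Atp6v0d1 is 366 bases. The first 30 bases of these RefSeq transcripts are shown because they are the nearest sequence at hand to a peak. They come from RefSeq on GRCm38.p6, at chr6:29467783-29467812 on the plus strand for Atp6v1f and chr8:105566035-105566064 on the minus strand for Atp6v0d1. Capitals mark cytosine, the base that can carry the acetyl group.
Atp6v1f: aggtgtttgggaagCgCtCtgCCCggCgga
Atp6v0d1: gtgagaCgCggtgCgtCaCCtgaCgCaCtt
Cytosine made up 7 of 30 bases in Atp6v1f (23.3%) and 9 of 30 in Atp6v0d1, against a median share of 26.7% over the first 30 bases at 32851 RefSeq starts (20.0% to 33.3% between the quartiles). Both stretches thus lay within the middle range of transcript starts. Whether the peaks cover these exact bases was not read, because the peaks are on another build.

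As a group, the 8 genes carried about as many peaks in CKO as in WT, and the lists of a genotype differed from each other. WT 1 held 29 peaks in the 8 spans, WT 2 held 26, CKO 1 held 23 and CKO 2 held 34. The WT mean was 27.5 ± 2.1 peaks and the CKO mean 28.5 ± 7.8 (SD, n = 2 lists each). The CKO mean was thus higher by 1.0 peak, less than the spread between lists. Both the lowest and the highest list were CKO, so the genotypes overlapped. Leaving out CKO 1 gave a difference of 6.5 peaks, and leaving out CKO 2 gave -4.5. The direction turned in the upper 50% by score and among peaks of 200 bases or more, where the genotypes did not overlap. In the upper 50% of each list by score the 8 genes had 21 and 20 peaks in WT against 17 and 18 in CKO. Among peaks of 200 bases or more they had 8 in each WT list against 5 and 6 in CKO. Among peaks of 50 bases or more the genotypes did overlap, with 22 and 20 in WT against 15 and 25 in CKO. Covered sequence was 3497 and 3455 bases in WT and 2328 and 3562 in CKO. CKO 1 stood lowest in bases too, and the CKO mean was lower by 531 bases (3476 ± 29.7 in WT against 2945 ± 872.6 in CKO, SD, n = 2 each). Leaving out CKO 1 turned this difference to 86 bases higher in CKO. With all 4 lists it was lower in CKO under every setting tried. It reached -1162 bases in the upper 50%, with 2545 and 2951 bases in WT against 1628 and 1544 in CKO, and these did not overlap. Among peaks of 200 bases or more the values were 2040 and 2068 against 1189 and 1488. How often other parts of the genome split this way under these settings, in peaks or in bases, was not computed. The WT values of both settings include the Atp6v1f region that was known beforehand, and the splits were not tested. Of the mean difference in peaks, Atp6v1f gave -2.0 of -3.0 in the upper 50%. Among peaks of 200 bases or more it gave -1.0 of -2.5. With Atp6v1f set aside, WT 2 and CKO 2 tie in peak number in the upper 50%. V-ATPase peaks made up 0.103% and 0.105% of the WT lists and 0.0819% and 0.14% of the CKO lists.

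**Figure D1:**
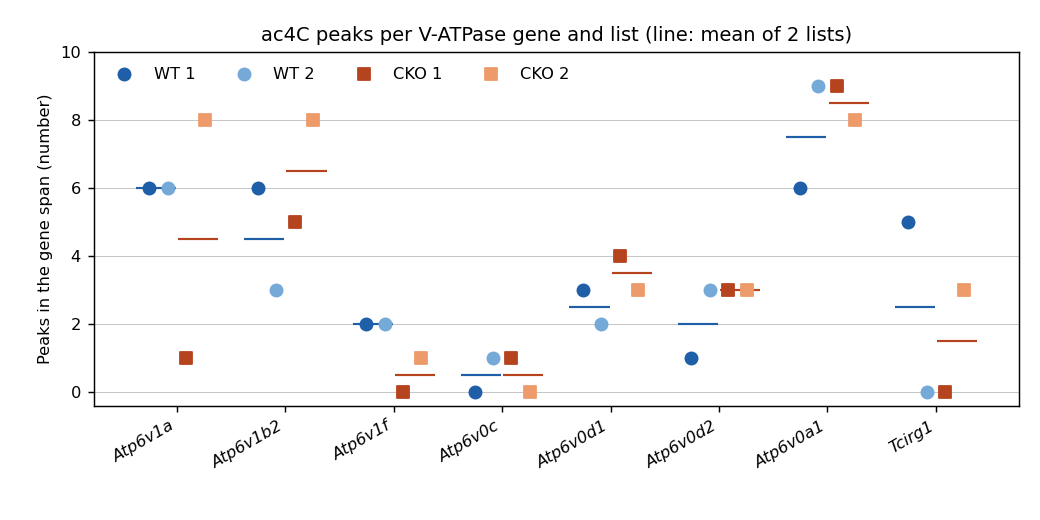
Number of ac4C peaks (y axis) in the span of each V-ATPase gene (x axis) in each of the 4 lists; circles are WT, squares CKO, and short lines the mean of the 2 lists of a genotype. Atp6v1f had 2 peaks in each WT list against 0 and 1 in CKO, while for the other 7 genes the genotypes overlapped or tied.

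Gene by gene, 1 of the 8 genes had more peaks in both WT lists than in either CKO list, and 0 of 8 had more in both CKO lists. The gene was Atp6v1f. As background, the genome was cut into stretches of 31 kb on each strand, the mean length of the 8 spans. Of the 15513 stretches with 2 or more peaks, 10.4% had more in both WT lists and 9.59% more in both CKO lists. The counts of 1 and 0 of 8 are near these shares. Compared within replicate numbers, Atp6v0d1 had more peaks in CKO in both pairs (4 against 3 and 3 against 2), and Atp6v1f fewer. Of the stretches, 13.5% had more peaks in CKO in both pairs and 14.4% fewer, so 1 of 8 genes each way is again near the background.

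Among the regions, 2 of 68 had a peak in both WT lists and in neither CKO list (2.94%), where 4.26% of all 75389 regions did. In the other direction 3 of 68 had a peak in both CKO lists alone (4.41%, against 3.64% of all regions). Both shares lay near the background. None of the 68 regions had a peak in all 4 lists, which 0.964% of all regions had. The WT-only regions were in Atp6v1f and Atp6v0a1, and the CKO-only regions in Atp6v1b2, Atp6v0d2 and Atp6v0a1. Each list decided these counts, since with 1 list left out the other list of its genotype stands alone. WT-only regions then numbered 10 without WT 1, 12 without WT 2, 3 without CKO 1 and 6 without CKO 2. CKO-only regions numbered 7, 4, 15 and 10 in the same order.

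V-ATPase regions were held by more than 1 list more often than regions in general. Of the 68, 35 (51.5%) had a peak in 1 list, 23 (33.8%) in 2 lists and 10 (14.7%) in 3 lists. Over all regions the shares were 69.1%, 23.7% and 6.24%. These are counts over regions of 8 genes chosen for their peaks, and the difference was not tested. Of the 23 regions in exactly 2 lists, 5 (21.7%) were shared by lists of 1 genotype and 18 by a WT and a CKO list. Over all regions 33.4% of such regions were shared within a genotype. The most frequent pair was WT 1 with CKO 2, with 6 regions, then WT 2 with CKO 1 and WT 2 with CKO 2, with 5 each.

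**Figure D2:**
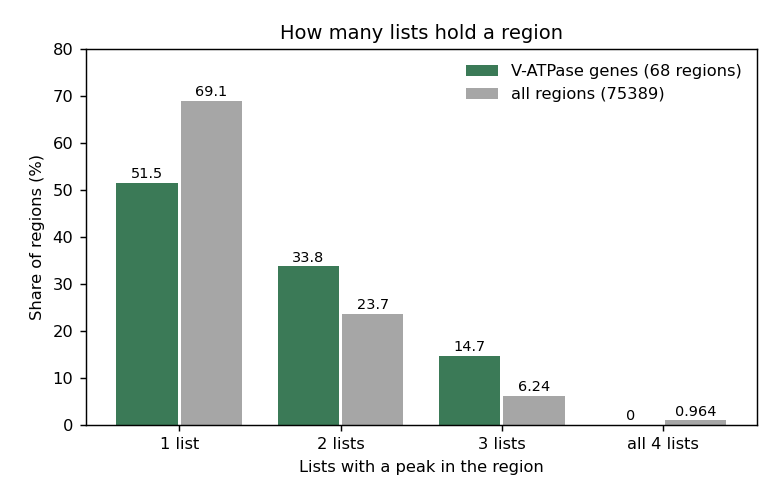
Share of regions (y axis, %) that had a peak in 1, 2, 3 or all 4 lists (x axis), for the 68 V-ATPase regions (green) and all 75389 regions (grey). V-ATPase regions in 1 list made up 51.5% against 69.1% of all regions, and none was in all 4 lists.

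Atp6v1f, the small shaft subunit of V1, held the WT-only region of highest rank among the 8 genes, and it had 2 regions in all. Its first region, at bases 29467751 to 29467952 of chromosome 6 (plus strand), stood at percentile 99.7 of WT 1 and 99.8 of WT 2. Neither CKO list had a peak there, and 2114 bases separated the region from the closest CKO peak of its strand. By mean percentile it ranked 6 of the 3210 regions held by both WT lists alone. The peaks of the 2 WT lists were nearly the same interval, 200 and 202 bases wide.

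The other Atp6v1f region, at 29470066 to 29470235, was held by both WT lists and by CKO 2. The peaks began at the same base in the 3 lists. They stood at percentile 61.2 in WT 1, 80.4 in WT 2 and 9.8 in CKO 2, so the CKO peak was among the weakest of its list. CKO 1 had no peak in this gene. Each WT list therefore had 2 peaks in Atp6v1f, and the CKO lists 0 and 1.

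Atp6v1a, which encodes the catalytic A subunit, had 6 peaks in each WT list, 1 in CKO 1 and 8 in CKO 2. The CKO lists stood on either side of the WT lists, and the CKO mean was 4.5 ± 4.95 peaks against 6.0 ± 0.0 (SD, n = 2 each). CKO 1 had a single peak in this gene, of 37 bases, inside a region that WT 1 and CKO 2 also held. That region, at 43928119 to 43928250 of chromosome 16 (minus strand), stood at percentile 84.9 in WT 1, 71.9 in CKO 1 and 70.3 in CKO 2. A further 2 regions, at 43906260 to 43906639 and 43907855 to 43907879, had peaks in both WT lists and CKO 2.

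Most of the 14 Atp6v1a regions, 10 of them, were found in 1 list. The strongest was at 43922126 to 43922237, at percentile 99.3 of WT 2 with no peak in the other lists. CKO 2 alone held a region of like strength at 43931953 to 43932075, at percentile 97.1. Peaks of WT 2 lay toward the 3′ side, with 5 of 6 between 43906304 and 43909440.

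Atp6v1b2 encodes the B2 subunit, the B isoform of most cells, which forms the ATP-hydrolysing head together with A. It had 6 and 3 peaks in WT and 5 and 8 in CKO, so the lists interleaved. Of its 10 regions, 4 were in 3 lists, more than in any other of the 8 genes. The region at 69558461 to 69558560 of chromosome 8 (plus strand) was in WT 1 at percentile 90.9, in CKO 1 at 99.3 and in CKO 2 at 95.2. The peaks began at the same base in the 3 lists. The region at 69560935 to 69561011 was at percentile 94.2 in WT 1, 98.7 in WT 2 and 74.8 in CKO 2.

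Between these lay the strongest CKO-only region of the 8 genes, at 69560234 to 69560295. It stood at percentile 99.7 of CKO 1 and 96.8 of CKO 2 and ranked 19 of 2741 regions of its kind. The nearest WT peak was 640 bases away, in the neighbouring region that both WT lists marked. The CKO-only peaks were 62 and 46 bases wide and began at the same base.

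The remaining regions in 3 lists were at 69554588 to 69554681 (percentile 49.6 in WT 1, 76.2 in CKO 1 and 10.0 in CKO 2) and at 69565082 to 69565511 (63.7 in WT 1, 90.9 in WT 2 and 29.2 in CKO 1). Peaks of the gene ran across 24902 bases, and the RefSeq gene is 24983 bases long. If all peaks lie inside the gene, the first and the last are within 81 bases of its ends. Both outermost peaks were from CKO 2 alone. The first of them, at 69541373 to 69541572, then lies in the part that Slc18a1 overlaps, and the strand of Slc18a1 was not at hand.

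**Figure D3:**
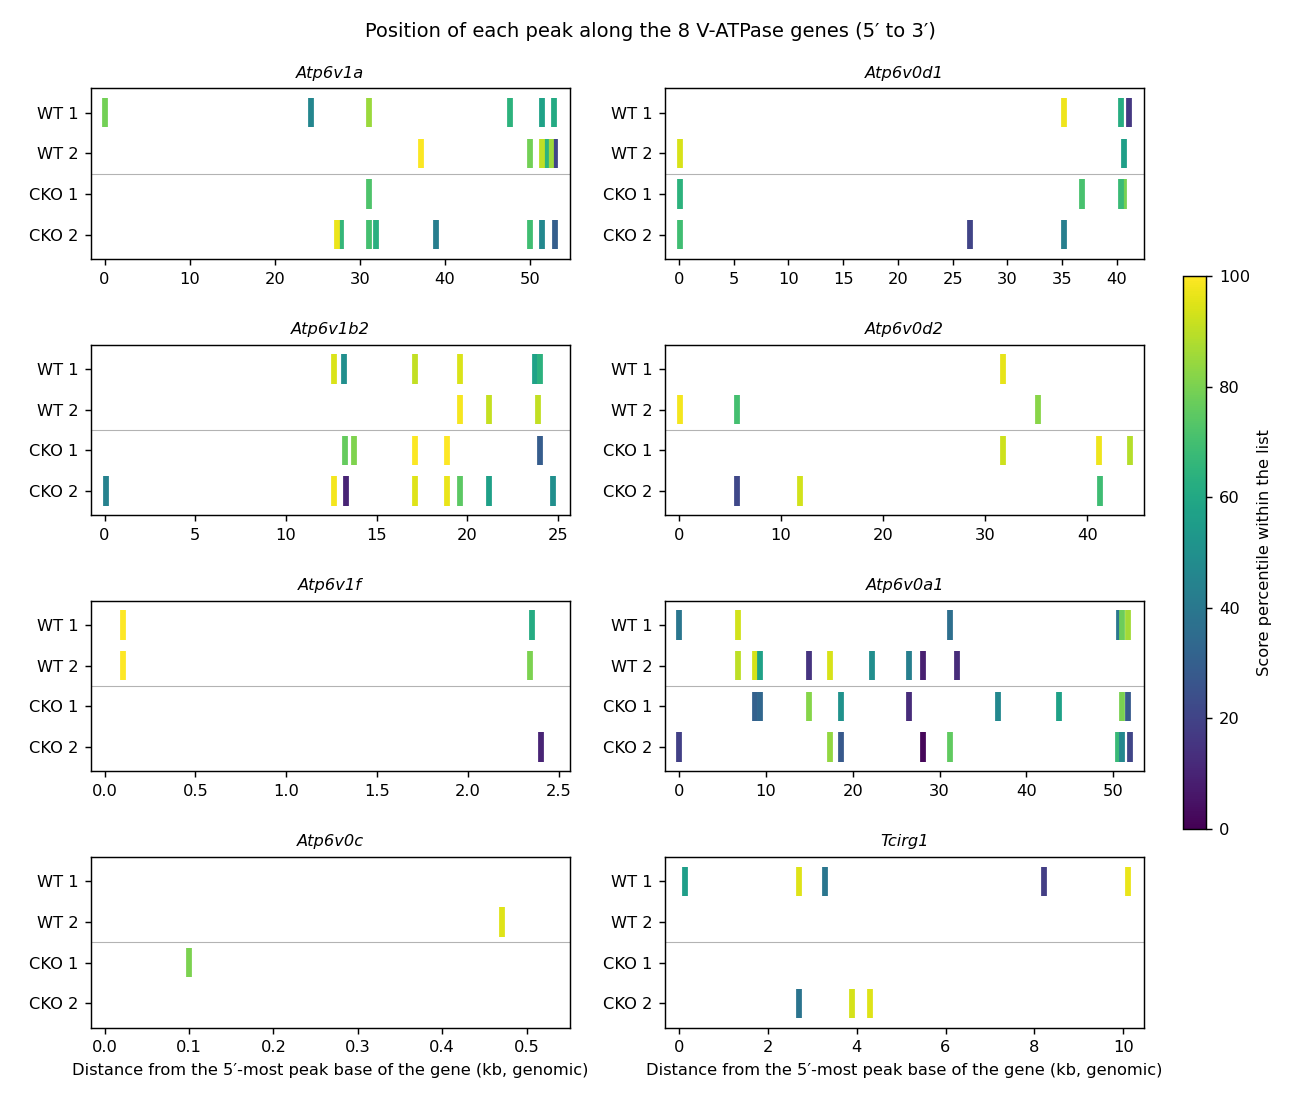
Position of every peak in each gene, drawn from the 5′ to the 3′ side (x axis, genomic kb from the 5′-most peak base; scales differ between genes) with 1 row per list and the score percentile within the list as colour. Atp6v1f had its strong first region in both WT lists only, and Tcirg1 had peaks in WT 1 and CKO 2 only; tick widths are not to scale.

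In the V0 sector, Atp6v0c, the gene of the proton-carrying c ring, had 2 peaks in all, in a RefSeq gene of 5814 bases. Per kb of gene and list this was 0.086 peaks, above the 0.072 of Atp6v0d1 and the 0.055 of Atp6v0d2. Gene length here is genomic, so these values are not a density along the mRNA. Atp6v0c had 0 peaks in WT 1, 1 in WT 2, 1 in CKO 1 and 0 in CKO 2. The WT 2 peak was at 24383455 to 24383582 of chromosome 17 (minus strand), at percentile 95.1. The CKO 1 peak was at 24383789 to 24383989, at percentile 80.4, and lay 207 bases from the first. The lists of different genotypes thus marked neighbouring stretches of the same gene and no common base.

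The d subunit exists as the widespread d1 and the osteoclast form d2, and their genes had like numbers of peaks. Atp6v0d1 had 3 and 2 peaks in WT and 4 and 3 in CKO. Atp6v0d2 had 1 and 3 in WT and 3 in each CKO list. The CKO mean was higher by 1.0 peak in both genes, with 1 list value shared between the genotypes in each. The means were 2.5 ± 0.707 and 3.5 ± 0.707 for Atp6v0d1 (SD, n = 2 each). For Atp6v0d2 they were 2.0 ± 1.41 and 3.0 ± 0.0, and the difference there rested on WT 1, the 1 list without 3 peaks. Among peaks of 200 bases or more the difference was 0.0 for Atp6v0d1 and turned to -0.5 for Atp6v0d2, which had 0.0 among peaks of 50 bases or more.

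Of the 8 regions of Atp6v0d1, the one nearest the 5′ end was in 3 lists. At 106292415 to 106292679 of chromosome 8 (minus strand), it stood at percentile 94.0 in WT 2, 64.4 in CKO 1 and 69.2 in CKO 2. This is the region whose RefSeq transcript start was shown with that of Atp6v1f. The 2 genes differed in their 5′-most regions, since the CKO lists held peaks in that of Atp6v0d1 and none in that of Atp6v1f. Other regions shared by a WT and a CKO list were at 106257447 to 106257625, at percentile 97.5 of WT 1 and 42.6 of CKO 2, and at 106251955 to 106252131, at 56.0 of WT 2 and 79.5 of CKO 1. In both of these the 2 lists had peaks of exactly the same first and last base.

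Atp6v0d2 had 7 regions, of which 0 were in 3 lists. The region at 19881290 to 19881452 of chromosome 4 (minus strand) was in both CKO lists alone, at percentile 97.5 of CKO 1 and 69.0 of CKO 2. The nearest WT peak was 5881 bases away, and the region ranked 229 of 2741 of its kind. A region 31725 bases from the 5′-most peak base, at 19890750 to 19890856, was strong in 1 list of each genotype, at percentile 96.2 in WT 1 and 92.5 in CKO 1. The strongest single peak was at 19922382 to 19922581, at percentile 98.3 of WT 2, the 5′-most of the gene, with no CKO peak within 5442 bases. The d2 gene thus had a CKO-only region toward its 3′ side and a peak of 1 WT list at its 5′ side. The sides did not part by genotype, however. Toward the 5′ side CKO 2 alone held 19910672 to 19910758, at percentile 93.2, and shared 19916764 to 19916940 with WT 2. Toward the 3′ side WT 2 alone held 19887333 to 19887385, at percentile 82.1.

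The a subunit offers the second pair of isoforms, the widespread a1 (Atp6v0a1) and the osteoclast a3 (Tcirg1). Atp6v0a1 had the most peaks of the 8 genes, 6 and 9 in WT and 9 and 8 in CKO, in 18 regions. Tcirg1 had 5 and 0 in WT and 0 and 3 in CKO, in 7 regions. The RefSeq genes are 54298 and 11084 bases long, and per kb of gene and list the order turned, with 0.147 peaks in Atp6v0a1 and 0.18 in Tcirg1. Atp6v1f (0.458) and Atp6v1b2 (0.22) had still more per kb. These lengths are genomic, so the values are not a density along the mRNA. Of this pair Atp6v0a1 had peaks in every list, and the lists of Tcirg1 did not part by genotype.

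In Atp6v0a1, 12 of the 18 regions were in exactly 2 lists. WT 1 and WT 2 alone held the region at 100909390 to 100909454 of chromosome 11 (plus strand), at percentile 93.0 and 90.2. Its nearest CKO peak was 1845 bases away, and it ranked 102 of 3210. CKO 1 and CKO 2 alone held the region at 100921236 to 100921309, at percentile 50.5 and 27.4, with a WT peak 1169 bases away. These CKO peaks were of middle and low strength in their lists, and the region ranked 1943 of 2741.

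The other 10 regions of Atp6v0a1 in 2 lists were shared across genotypes. The strongest, at 100919868 to 100920068, was at percentile 94.0 of WT 2 and 83.9 of CKO 2, and its peaks were 200 and 201 bases wide. The only region in 3 lists was at 100953372 to 100953687, near the 3′ end, at percentile 77.5 in WT 1, 79.8 in CKO 1 and 46.3 in CKO 2. The weakest shared region of the 8 genes was also here, at 100930647 to 100930713, at percentile 8.6 of WT 2 and 1.6 of CKO 2. Weak peaks were therefore shared between lists as well as strong ones.

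In Tcirg1, 1 of the 7 regions was in 2 lists. It was at 3954227 to 3954295 of chromosome 19 (minus strand), at percentile 95.3 of WT 1 and 38.6 of CKO 2. The strongest peak of the gene, at 3946795 to 3946902, was at percentile 96.6 of WT 1 and in no other list. CKO 2 alone held peaks at 3952631 to 3952681 and 3953046 to 3953072, at percentile 95 and 93.7. The empty lists were WT 2 and CKO 1, so each genotype had 1 list with peaks in the osteoclast a3 gene and 1 without.

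**Figure D4:**
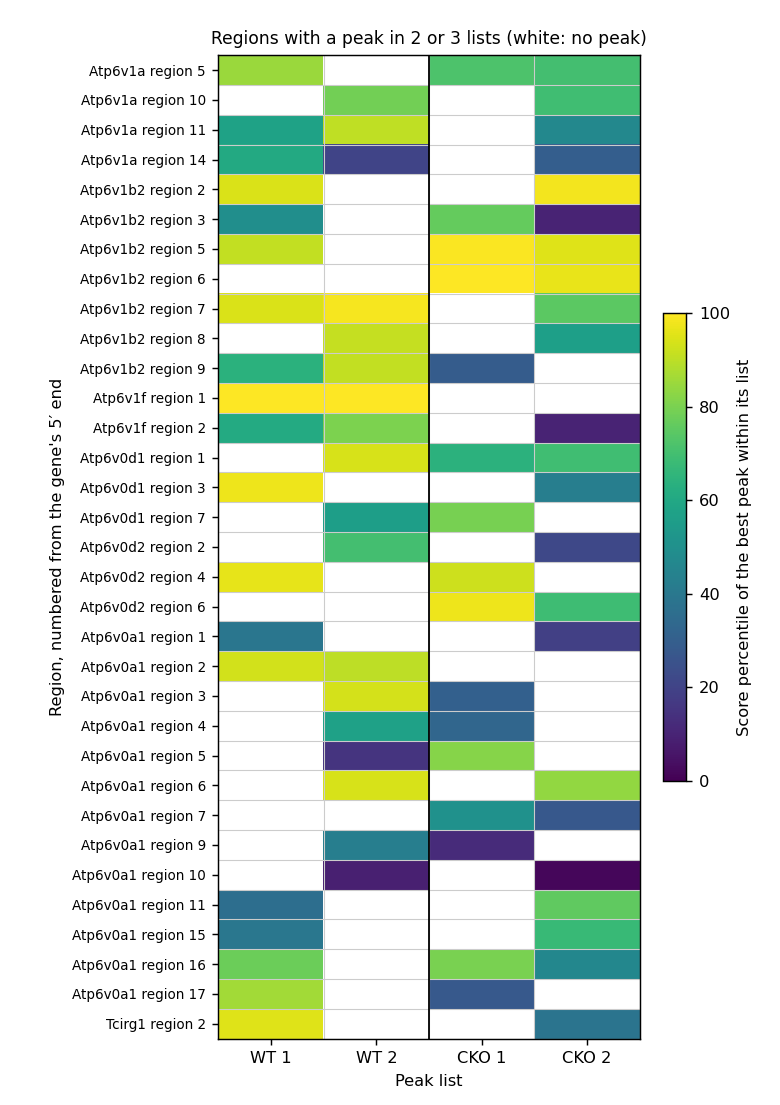
The 33 V-ATPase regions held by 2 or 3 lists (rows, numbered from the 5′ end of each gene) and the score percentile of their best peak in each list (columns); white means no peak. Region 1 of Atp6v1f and region 2 of Atp6v0a1 are filled in WT only, and region 6 of Atp6v1b2, region 6 of Atp6v0d2 and region 7 of Atp6v0a1 in CKO only.

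At the median, V-ATPase peaks ranked above the middle of their lists, and the medians did not part by genotype. The median percentile of the peaks in the 8 genes was 63.7 in WT 1, 83.7 in WT 2, 71.9 in CKO 1 and 59.8 in CKO 2, where 50 is the middle of any list. Peaks above percentile 90 were 9 of 29 (31.0%) in WT 1 and 12 of 26 (46.2%) in WT 2. In CKO 1 they were 4 of 23 (17.4%) and in CKO 2 7 of 34 (20.6%). By construction 10% of a whole list lies above this line. The genotypes did not overlap at this line, nor above percentile 80 (37.9% and 57.7% against 34.8% and 23.5%) or 95 (17.2% and 19.2% against 13.0% and 11.8%). They did overlap above percentile 75, with 44.8% and 61.5% in WT and 47.8% and 26.5% in CKO, and above 50. These lines were chosen after the values were seen, and the difference was not tested. At every line the WT shares include the Atp6v1f region that was known beforehand, and shares without that gene were not computed. The share by construction holds for any list and gives no background for a split by genotype. How often other sets of genes split this way at these lines was not computed.

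Keeping only the upper 50% of each list by score uses these same percentiles and is no separate evidence. WT-only regions then numbered 5 of 53 (9.43%), 2 of them in Atp6v1f, and CKO-only regions 2 of 53 (3.77%). Over all regions kept by this setting, the shares were 3.31% and 2.44%. The WT-only regions that this setting added were the second region of Atp6v1f, at 29470066, that of Atp6v1a at 43907855 and that of Atp6v1b2 at 69565082. In each of these 1 CKO list held a peak, of percentile 9.8, 46.5 or 29.2, which was no longer counted. The other CKO list had no peak there under any rank. These 3 regions thus differed by rank in 1 CKO list and by presence in the other. The region of Atp6v0a1 that both CKO lists held was lost in the same step.

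Shared regions often had shared edges. Of the 33 V-ATPase regions in 2 or 3 lists, 30 (90.9%) had a first or a last base common to 2 or more lists. In 5 of the 33 both edges were shared, though not always by the same lists. Over all 23274 regions in 2 or more lists the share with a common edge was 74%, and 3286 regions had both edges shared. Over the 112 peaks the widths ran from 4 bases in Atp6v0d1 to 405 in Atp6v1b2, and the median width in the 8 genes was 100 and 118 bases in WT and 66 and 82 bases in CKO. Over the whole lists it was 113 and 110 bases in WT and 115 and 120 in CKO. The sources used here do not state whether peaks were trimmed.

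The peak names give a further view of the calls around these genes. Names are numbered along the genome in each list, so a gap in the numbers is a call left out of the list. Counting between the first and the last listed peak of each gene with 2 or more peaks in a list, on either strand, 10 calls were left out in WT 1 beside 28 listed, 8 beside 25 in WT 2, 10 beside 21 in CKO 1 and 19 beside 33 in CKO 2. By gene, most gaps were in 3 V0 genes. Atp6v0d2 had 17 calls left out beside 9 listed, Atp6v0a1 15 beside 32 and Atp6v0d1 9 beside 12. Among V1 genes Atp6v1a had 6 beside 20, all in WT 1, whereas Atp6v1b2 and Atp6v1f had 0 beside 22 and 4. Tcirg1 had 0 beside 8. The Atp6v1f count covers only the WT lists, since neither CKO list had 2 or more peaks there. It gives no view of calls left out of the CKO lists in that gene. The Tcirg1 count covers only WT 1 and CKO 2. In the osteoclast d2 gene the calls left out outnumbered those listed in WT 2 (6 against 3) and CKO 2 (9 against 3), but not in CKO 1 (2 against 3). As background, the listed peaks of the whole lists come to 45.3% and 62.8% of the highest peak number in WT 1 and WT 2, and to 46.8% and 52.8% in CKO 1 and CKO 2. Calls left out were thus common over the whole lists, and in the 8 genes together they were fewer than the listed ones in every list. The 2 measures are unlike, since the gene counts cover only the stretch between listed peaks and the background covers the whole genome.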

How the data were processed

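The authors deposited 4 peak lists of ac4C precipitation against input. Per the submitters' processing notes, fastp 0.20.1, STAR 2.7.8a, MACS2 2.2.7.1 and mm39 (GRCm39) were used, and peak names show 1 call set per library. Each peak's score is a value of the authors. The sources used here do not state which MACS2 quantity it is, or how mRNA peaks were selected and stranded. Listed peaks come to 45.3% to 62.8% of the highest peak number of their list.

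Files were read as BED, which counts from 0, and positions are printed counting from 1. Peaks sharing 1 base on a strand were merged into regions. Members, spans and lists were chosen with earlier results of these data known. All regions held by both lists of 1 genotype alone, or by 3 or 4 lists, and the strongest region per gene were named by rule. Whether replicates are separate animals is not stated. Merging was tested on simulated lists. Python 3.11.15, numpy 2.4.6, pandas 2.3.3 and matplotlib 3.10.9 were used. Other V-ATPase genes, peak sequences and genes of like pattern need an mm39 annotation and were not analysed here.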

Additional observations from a re-analysis of the deposited data

How the results depend on the processing

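Across settings that keep all 4 lists, the difference in V-ATPase peak number ran from -3 peaks in the upper 50% of each list to 1.5 with strand ignored, so its sign depends on the setting. It was also below 0 among peaks of 200 bases or more (-2.5) and of 50 bases or more (-1.0). Covered bases were lower in CKO throughout, with differences from -1162 in the upper 50% to -519.5 with strand ignored, and the Atp6v0d2 difference turned to -0.5 peaks among peaks of 200 bases or more. Regions in both WT lists alone numbered 5 in the upper 50% and 1 among peaks of 200 bases or more, where 2 were reported. Regions in both CKO lists alone numbered 0 among peaks of 200 bases or more and 1 among peaks of 50 bases or more, where 3 were reported. With the replicate block (WT 1 paired with CKO 1 and WT 2 with CKO 2), 1 gene, Atp6v0d1, had more peaks in CKO in both pairs, and no other count or difference moved. Stretch by stretch, samples with the same number did not deviate together (r = -0.018 over 15513 stretches). This correlation does not register a shift common to a whole list. In both genotypes the number 1 list was larger, with 28065 (WT) and 28087 (CKO) peaks against 24851 and 24249. Leaving out 1 list, so that a single list stands for its genotype, gave 3 to 12 WT-only regions, 4 to 15 CKO-only regions, 1 to 4 regions in all remaining lists, 1 to 2 genes higher in WT and 1 to 2 genes higher in CKO. Equal peak numbers, 50% overlap, merging across 100 bases, wider spans and ignoring strand left these 3 region counts as reported, and the gene counts too for the settings where they were computed (not for the 50% overlap or the merging). Unknown depth limits all of these values.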
